A study of Mus musculus with 8 samples.

Results

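The genes described here are 7 interferon-linked genes, Parp9, Dtx3l, Parp10, Parp11, Parp12, Parp14 and Zc3hav1, with Parp1 and Parp2 as comparators that act in DNA repair. They were chosen by name, with earlier results of these data known. All 9 were found among the 55367 genes of the deposited count table and passed the filter on low counts. The cells were Neuro2a, a mouse neuroblastoma line, transfected for CRISPR activation, in which a catalytically inactive Staphylococcus aureus Cas9 fused to the transcriptional activator VP64 (sadCas9-VP64) is led to a site by a single guide RNA (sgRNA). Cells labelled CRISPRa received 750 ng of sgRNA plasmid with 750 ng of sadCas9-VP64 plasmid, and cells labelled VP64, no sgRNA received the sadCas9-VP64 plasmid without a guide, in an amount that the labels do not give. Both groups thus carried sadCas9-VP64. The labels name no untransfected group and no other guide, so the guide's action and the presence of the sgRNA plasmid cannot be told apart. The series is directed at Scn2a. Counts were analysed for 3 CRISPRa libraries (replicates 2, 3 and 5) and 3 no-sgRNA libraries (replicates 2, 3 and 4) of poly(A) RNA. The labels do not say whether replicates came from separate cultures, so p-values measure the spread between these libraries, which may be technical.

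Poly(ADP-ribose) polymerases (PARPs) take ADP-ribose from NAD and attach it to proteins, as long chains in the case of PARP1 and PARP2 and as single units in the case of PARP10, PARP11, PARP12 and PARP14. A subset of the family is known to be induced by interferon and to restrict viruses. PARP9 forms a complex with the ubiquitin ligase DTX3L, and Zc3hav1 encodes ZAP, the zinc-finger antiviral protein, a family member without catalytic activity that binds viral RNA. Viruses counter this branch with macrodomain proteins that remove ADP-ribose.

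Libraries held from 29739422 to 34248514 counts, and the TMM (trimmed mean of M-values) scaling factors lay between 0.978 and 1.01. No 2 libraries of a group agreed within sampling noise. Within each group replicates 2 and 3 were the closer pair, with a chi-square per degree of freedom of 4.88 (CRISPRa) and 6.24 (no sgRNA), and the remaining library stood at 15.1 to 18.8 from them. Scn2a had 231 to 279 counts with CRISPRa and 130 to 193 without the guide (log2 fold change 0.48, SE 0.19, edgeR adjusted p 0.0899). Of 13 neuroblastoma markers 10 passed the filter, Hand2 and Gata2 among them, while Nefl and Nefm had at most 10 counts in any library. Of the 10, 2 rose and 2 fell, and the summed level of the 13 was lower with CRISPRa, 1651 to 1883 CPM (counts scaled to a common library total) against 1901 to 2067 CPM, without overlap. Of 10 leukocyte markers, 6 had 0 counts in all libraries, and their summed level was 1.01 to 1.62 CPM with CRISPRa and 0.631 to 1.65 CPM without the guide. The summed level of 5 fibroblast markers was lower with CRISPRa, 14.6 to 21.4 CPM against 28.6 to 32.4 CPM, and 2 of the 4 tested fell. The part of these marker differences in the results below was not tested.

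Start regions of the members are shown because 6 of the 7 interferon-linked genes passed the test as higher with CRISPRa. Windows of 300 bases, 250 before and 50 after an annotated start, were taken from RefSeq (GRCm38.p6), where 6 of the 9 members had an entry, with Parp9, Parp10 and Parp14 unmatched. They were searched on both strands for the core of the interferon-stimulated response element (GAAA and GAAA on a strand, 2 bases apart) and that of the gamma-activated site (TTC and GAA, 3 bases apart). Dtx3l, Parp12, Parp11 and Parp1 are printed 5′ to 3′ on the gene's strand, with matches in capitals. They are Dtx3l at chr16:35938978-35939277 (minus strand), Parp12 at chr6:39118300-39118599 (minus strand), Parp11 at chr6:127446590-127446889 (plus strand) and Parp1 at chr1:180568641-180568940 (plus strand).
Dtx3l: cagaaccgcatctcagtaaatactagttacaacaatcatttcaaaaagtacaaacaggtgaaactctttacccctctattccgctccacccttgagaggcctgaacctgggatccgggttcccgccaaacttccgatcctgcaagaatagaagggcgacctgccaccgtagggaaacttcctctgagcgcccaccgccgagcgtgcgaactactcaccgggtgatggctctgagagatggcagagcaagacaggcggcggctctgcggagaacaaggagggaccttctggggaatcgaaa
Parp12: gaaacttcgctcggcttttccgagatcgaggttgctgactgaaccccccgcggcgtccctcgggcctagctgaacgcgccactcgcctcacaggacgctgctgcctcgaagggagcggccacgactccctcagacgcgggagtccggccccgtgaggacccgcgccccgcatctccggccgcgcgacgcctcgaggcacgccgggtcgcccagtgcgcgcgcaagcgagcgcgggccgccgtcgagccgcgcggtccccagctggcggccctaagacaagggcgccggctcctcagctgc
Parp11: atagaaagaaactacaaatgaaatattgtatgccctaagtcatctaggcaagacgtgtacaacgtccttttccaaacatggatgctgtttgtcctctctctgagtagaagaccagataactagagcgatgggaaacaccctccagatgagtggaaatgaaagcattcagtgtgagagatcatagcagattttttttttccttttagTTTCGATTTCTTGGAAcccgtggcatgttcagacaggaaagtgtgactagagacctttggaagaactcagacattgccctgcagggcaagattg
Parp1: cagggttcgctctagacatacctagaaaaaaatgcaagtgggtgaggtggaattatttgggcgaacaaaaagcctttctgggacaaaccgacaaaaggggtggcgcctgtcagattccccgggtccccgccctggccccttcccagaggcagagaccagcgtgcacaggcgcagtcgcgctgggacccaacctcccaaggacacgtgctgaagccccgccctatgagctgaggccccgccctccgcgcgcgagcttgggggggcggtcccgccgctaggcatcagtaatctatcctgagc

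The first of the 2 Parp11 windows held both motifs. The response element core lay on the minus strand at bases 207 to 216 of the window, and the activated site core, a palindrome, at bases 214 to 222, so the matches overlap in the capitals. Across all 32851 windows of this length, 3.44% held the first motif and 8.3% the second. The other member windows, including those of Dtx3l, Parp12 and Zc3hav1, held neither, which says only that these letters are not in these windows. GC content was 54.3% for Dtx3l, 73.7% for Parp12 and 42% for the first Parp11 window, against a median of 52.7% over all windows. The second Parp11 window, which is not printed, had 59%. The Dtx3l window lies inside the annotated span of Parp9, which runs the opposite way from the same place.

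Of the 7 interferon-linked genes, 6 rose with CRISPRa: Parp14 by 47-fold, Dtx3l by 6.52-fold, Parp9 by 6.11-fold, Parp12 by 5.62-fold, Parp10 by 3.32-fold and Zc3hav1 by 2.04-fold. Parp11 did not pass the test (log2 fold change 0.39, SE 0.15, edgeR adjusted p 0.0825). A gene was called changed at a Benjamini-Hochberg adjusted p under 0.05 in edgeR's quasi-likelihood test over 15117 genes, of which 18.7% were called, 9.47% as higher and 9.25% as lower. The median log2 fold change of the 7 genes was 2.49, against -0.0071 over all genes tested. For each of the 7 the lowest CRISPRa library exceeded the highest no-sgRNA library. Groups without overlap were found in 36.4% of all tested genes, and in 17.7% with CRISPRa higher. In RNA from whole cultures, a change in the share of cells that express a gene and a change in RNA per cell cannot be told apart.

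**Figure D1:**
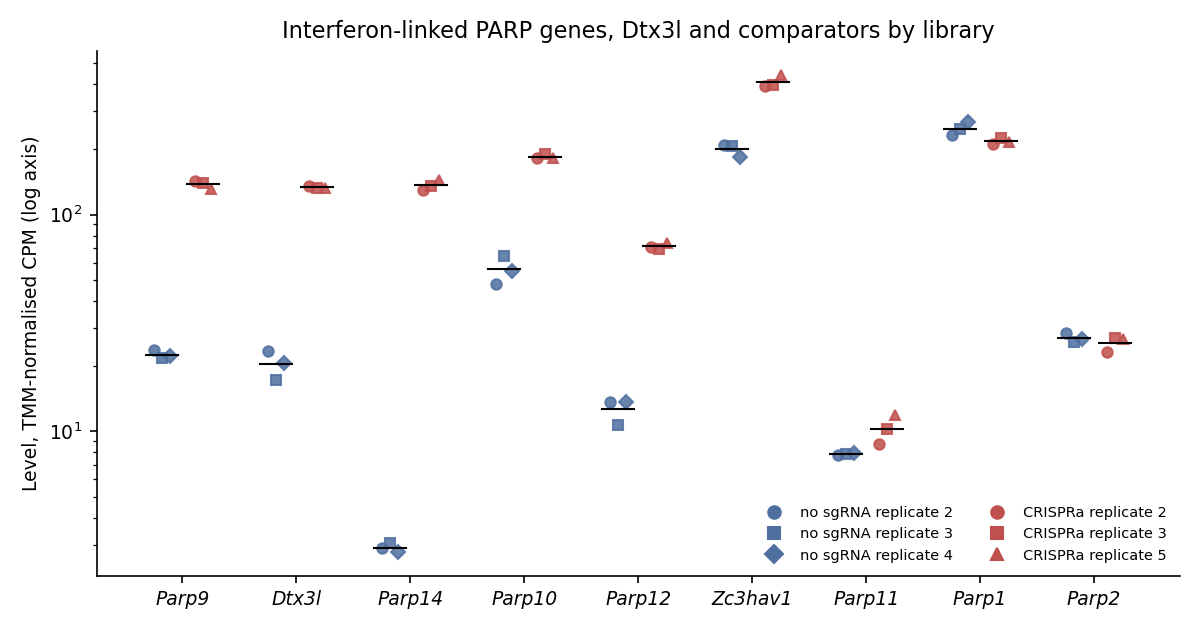
Level of each gene in each library, as TMM-normalised CPM on a log axis. Blue points are no-sgRNA libraries, red points CRISPRa libraries, the shapes give the replicate and each bar is the mean of 3 libraries. Parp14 goes from 2.78 to 3.06 CPM without the guide to 130 to 145 CPM with CRISPRa, and the groups overlap for Parp2.

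Parp9 and Dtx3l, which encode the partners of the PARP9-DTX3L complex, were described first. Parp9 (chromosome 16, 35938470 to 35972605, plus strand, GRCm38) stood at 143, 140 and 131 CPM in CRISPRa replicates 2, 3 and 5 and at 23.7, 21.7 and 22.2 CPM in no-sgRNA replicates 2, 3 and 4. The CRISPRa libraries were all high, with replicate 5 the lowest of them, and the lowest was 5.5 times the highest no-sgRNA library. The log2 fold change was 2.61 (SE 0.08, edgeR adjusted p 1.23e-12).

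Dtx3l (chromosome 16, 35926511 to 35939151, minus strand) stood at 136, 132 and 132 CPM with CRISPRa and at 23.4, 17.2 and 20.7 CPM without the guide. The CRISPRa libraries lay close together (133 ± 2.4 CPM, SD, n = 3), and the no-sgRNA libraries were relatively wider (20.4 ± 3.14 CPM). On the log2 scale the groups differed by 2.70 (SE 0.10, edgeR adjusted p 1.66e-11).

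Whether the partners moved by the same amount was examined in their ratio within a library. On the log2 scale of CPM, Parp9 over Dtx3l was 0.05 ± 0.05 with CRISPRa and 0.15 ± 0.16 without the guide (SD, n = 3). The difference of -0.11 had p = 0.4 in the exact two-sided permutation test over libraries, whose smallest possible p with 3 against 3 is 0.1. The difference was smaller than the spread between the no-sgRNA libraries, and leaving out 1 library placed it between -0.17 and -0.01. The genes' annotated spans overlap by 682 bases and their exons by 458 bases on opposite strands, 9.4% of the exonic bases of Parp9 and 8% of those of Dtx3l. Whether the counting used strand is not given in the sources used here, so reads from that stretch cannot be assigned to one of them.

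Parp14 encodes a large macrodomain-containing PARP that adds single ADP-ribose units and lies in the same cluster, 55 kb from Dtx3l (chromosome 16, 35832874 to 35871544, minus strand). Its counts were 4490, 4402 and 4717 with CRISPRa and 88, 91 and 88 without the guide. As CPM these are 130, 135 and 145 against 2.88, 3.06 and 2.78. The no-sgRNA libraries were uniformly low, and the lowest CRISPRa library was 42.5 times the highest of them. Its log2 fold change, 5.55 (SE 0.10, edgeR adjusted p 6.19e-15), was exceeded by 37 of the 15117 tested genes, against 86 for Dtx3l and 91 for Parp9.

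Parp10 and Parp12 encode further enzymes that add single ADP-ribose units. Parp10 (chromosome 15, 76231174 to 76243441, minus strand) stood at 183, 190 and 182 CPM with CRISPRa and at 47.9, 64.7 and 54.9 CPM without the guide. Replicate 3 was the highest of the no-sgRNA libraries, and the groups lay 2.82-fold apart at their nearest points. On the log2 scale the difference was 1.73 (SE 0.09, edgeR adjusted p 2.13e-09). Exons of Plec on the same strand cover 4.8% of its exonic bases.

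Parp12 (chromosome 6, 39086410 to 39118349, minus strand) stood at 70.5, 69.3 and 74.2 CPM with CRISPRa and at 13.7, 10.7 and 13.6 CPM without the guide. All CRISPRa libraries were high, at least 5.05 times the highest control. On the log2 scale they differed by 2.49 (SE 0.10, edgeR adjusted p 7.22e-11).

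Zc3hav1 (chromosome 6, 38305286 to 38354603, minus strand), the gene of the RNA-binding protein ZAP, stood at 391, 395 and 442 CPM with CRISPRa and at 210, 207 and 185 CPM without the guide. Among the 6 genes that rose it had the smallest fold change. CRISPRa replicate 5 was the highest library and no-sgRNA replicate 4 the lowest. Its log2 fold change was 1.03 (SE 0.07, edgeR adjusted p 9.38e-08). Gene-level counts do not separate the long and short forms of ZAP.

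Parp11 (chromosome 6, 127446840 to 127494261, plus strand), whose product is known to modify a regulator of the interferon receptor's turnover, missed the threshold. It stood at 8.76, 10.2 and 11.9 CPM with CRISPRa and at 7.76, 7.87 and 7.96 CPM without the guide. The no-sgRNA libraries were nearly equal and the CRISPRa libraries spread upward from just above them. Without CRISPRa replicate 2 its log2 fold change was 0.50 and passed (edgeR adjusted p 0.0467), and without CRISPRa replicate 5 it was 0.28 (adjusted p 0.259). The libraries left out in turn otherwise gave adjusted p-values above 0.05.

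The comparators Parp1 and Parp2 encode enzymes that bind DNA breaks and build poly(ADP-ribose) chains there. Parp1 (chromosome 1, 180568924 to 180601254, plus strand) stood at 211, 226 and 215 CPM with CRISPRa and at 232, 249 and 267 CPM without the guide. Every CRISPRa library was below every no-sgRNA library, as in 18.7% of all tested genes, and no-sgRNA replicate 4 was the highest. The log2 fold change was -0.20 (SE 0.07) at an edgeR adjusted p of 0.0512, just outside the threshold. It passed with upper-quartile scaling (adjusted p 0.0485), DESeq2 (0.0453), limma-voom (0.0454) and without no-sgRNA replicate 2 (0.0323), with log2 fold changes from -0.25 to -0.19.

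Parp2 (chromosome 14, 50807841 to 50821301, plus strand) stood at 23.1, 26.8 and 26.7 CPM with CRISPRa and at 28.4, 25.8 and 26.7 CPM without the guide. The groups overlapped. The log2 fold change was -0.08 (SE 0.10, edgeR adjusted p 0.619).

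**Figure D2:**
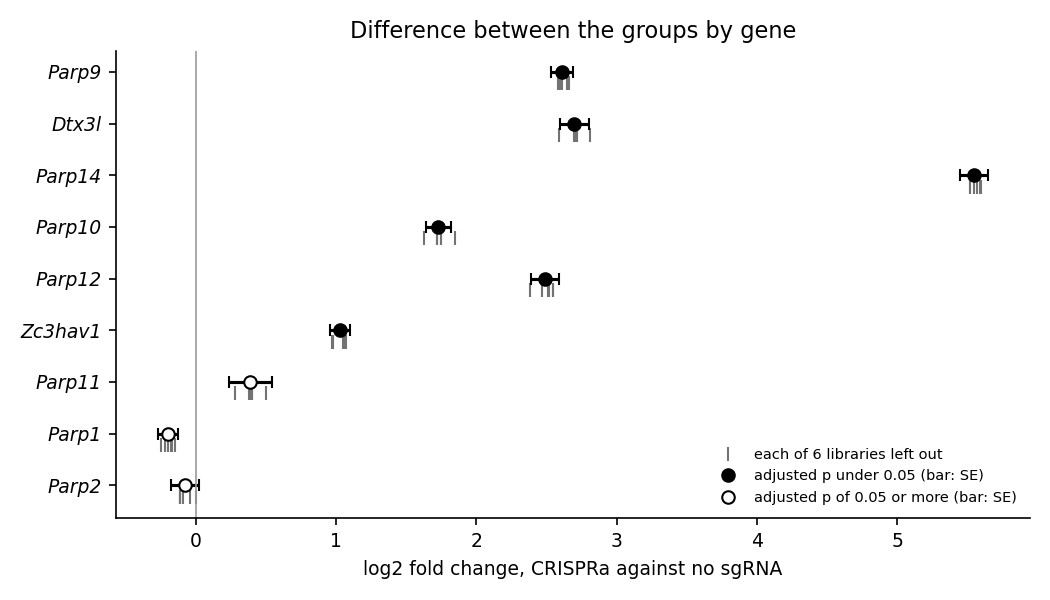
Log2 fold change of each gene, CRISPRa against no sgRNA, with bars of 1 SE. Filled points have an edgeR adjusted p under 0.05, and grey ticks are the values with each of the 6 libraries left out. Values run from -0.20 for Parp1 to 5.55 for Parp14.

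Each interferon-linked gene was also set against Parp1 within a library, which removes any scaling between libraries. The mean log2 ratio was higher with CRISPRa by 5.75 for Parp14, 2.91 for Dtx3l, 2.81 for Parp9, 2.70 for Parp12, 1.94 for Parp10, 1.22 for Zc3hav1 and 0.57 for Parp11. Parp1 itself was lower in every CRISPRa library (log2 fold change -0.20), which adds to each of these differences. In each of these 7 ratios the groups did not overlap, and in CPM they did not in 36.4% of all tested genes. The share of all genes without overlap in the ratio to Parp1 was not computed. The exact two-sided permutation test gave p = 0.1 for each of the 7, the smallest that 3 against 3 allows. Adjusted over the 8 ratios compared, that of Parp9 to Dtx3l included, p was 0.114 for each of the 7.

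Levels of different genes were compared as TPM, a level per length computed from the counts and the deposited gene lengths. Without the guide the order was Parp1 (164 ± 6.44 TPM), Zc3hav1 (108 ± 10.6), Parp10 (45.7 ± 6.82), Parp2 (26 ± 1.8), Parp9 (16.2 ± 1.14), Dtx3l (12.5 ± 2.08), Parp12 (11.1 ± 1.49), Parp11 (3.91 ± 0.0774) and Parp14 (1.09 ± 0.0772; SD, n = 3). The ranges of Dtx3l and Parp12 overlapped there, and those of all other neighbours in the order did not. With CRISPRa, Zc3hav1 (229 ± 16.3 TPM) and Parp10 (158 ± 3.47) stood above Parp1 (150 ± 5.29). Parp9 (103 ± 4.58), Dtx3l (84.8 ± 1.42), Parp12 (65.1 ± 2.41) and Parp14 (53.6 ± 3.13) followed, ahead of Parp2 (25.6 ± 2.17) and Parp11 (5.34 ± 0.832; SD, n = 3). No neighbours in that order overlapped in range, although Parp10 and Parp1 came close (lowest 156 and highest 155 TPM). Parp14 thus moved from the last place to the seventh, and Parp11 took the last.

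The summed level of the 7 interferon-linked genes was 687, 692 and 716 TPM in the CRISPRa libraries and 206, 206 and 183 TPM in the no-sgRNA libraries. Its make-up shifted. ZAP transcripts (Zc3hav1) made up 54.3% ± 1.99 of the sum without the guide and 32.7% ± 1.58 with CRISPRa, and Parp14 went from 0.551% ± 0.0109 to 7.66% ± 0.278 (SD, n = 3). Parp9 went from 8.17% ± 0.496 to 14.8% ± 0.975 and Dtx3l from 6.31% ± 1.05 to 12.1% ± 0.419. The share of Parp10 was 23% ± 3.2 without the guide and 22.6% ± 0.829 with CRISPRa, within the spread between libraries. Over the 16 PARP genes measured, Dtx3l not among them, Parp1 was 23.4% ± 1.74 of the summed TPM without the guide and 12.9% ± 0.459 with CRISPRa, while the sum itself went from 703 ± 26.1 to 1159 ± 34.9 TPM (SD, n = 3).

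**Figure D3:**
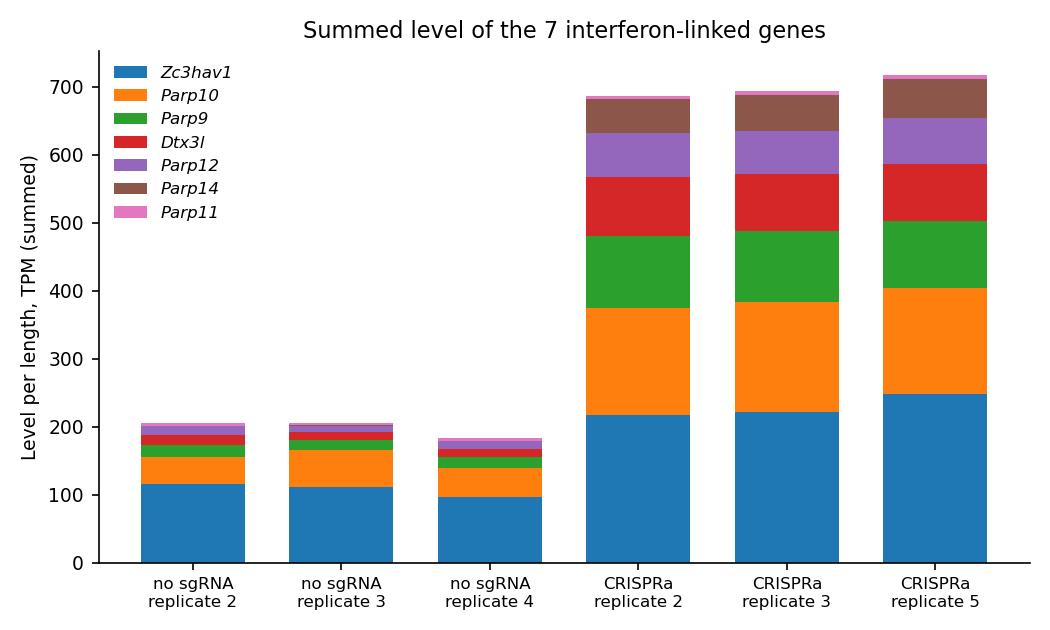
Summed level per length (TPM, linear axis from 0) of the 7 interferon-linked genes in each library, divided by gene. The no-sgRNA libraries reach 183 to 206 TPM, mostly Zc3hav1 and Parp10, and the CRISPRa libraries 687 to 716 TPM.

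The authors' deposited table of 8 samples lists all 9 genes. Of its 13798 genes with an adjusted p, 28.6% are under 0.05. The direction of that table is not stated. It was read as CRISPRa against no sgRNA from the sign of these same genes, so the sign is no separate check. The labels list 8 samples, and the 6 libraries analysed here are among them, so the sizes are no separate check either. The authors' deposited table gives log2 fold changes of 5.44 for Parp14, 2.68 for Parp9, 2.64 for Dtx3l, 2.51 for Parp12, 1.75 for Parp10 and 0.95 for Zc3hav1. For Parp11 the authors' deposited table gives 0.37 (SE 0.13) with an adjusted p of 0.0158, and for Parp1 -0.19 (SE 0.06) with an adjusted p of 0.00711, both under 0.05. Parp2 has -0.08 (adjusted p 0.558) in the authors' deposited table.

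Genes connected with these PARPs were taken from lists, read against the background of 18.7% called and a median log2 fold change of -0.0071. Of the 8 other PARP family genes, 2 rose, 1 fell and 5 did not pass (median 0.14). Parp3, which acts in repair of DNA breaks, went from 12.9 ± 0.748 to 21.4 ± 1.03 CPM (SD, n = 3; log2 fold change 0.73, edgeR adjusted p 3.12e-04). Parp4, the vault particle PARP, went from 34.2 ± 3.33 to 50.2 ± 7.94 CPM (log2 fold change 0.55, edgeR adjusted p 0.00304). Parp16, a PARP of the endoplasmic reticulum membrane, fell from 34.4 ± 2.61 to 24.8 ± 2.42 CPM (SD, n = 3; log2 fold change -0.47, edgeR adjusted p 0.00417). The tankyrase gene Tnks2, with the highest CPM of this list (a level that also reflects gene length), stood at 347 ± 17.8 against 325 ± 16.7 CPM (SD, n = 3), and its groups overlapped. These 3 calls held with any 1 library left out.

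Among 12 partners of ZAP, 4 rose and 8 did not pass (median 0.20). Trim25, the ubiquitin ligase that ZAP needs for its antiviral action, stood at 232, 226 and 241 CPM with CRISPRa and at 95.6, 104 and 86.2 CPM without the guide (log2 fold change 1.29, SE 0.07, edgeR adjusted p 6.58e-09). N4bp1, an RNA-cleaving relative of the ZAP cofactor KHNYN, rose from 121 ± 7.82 to 181 ± 6.94 CPM (SD, n = 3; log2 fold change 0.58, edgeR adjusted p 3.55e-05). The RNA decay genes Dcp2 (0.55, edgeR adjusted p 1.13e-04), for decapping, and Xrn1 (0.37, edgeR adjusted p 0.00482), for 5′ to 3′ decay, rose too. The helicase gene Ddx17 had the highest CPM, at 785 ± 32.9 against 745 ± 36.3 CPM (SD, n = 3), with overlapping groups. All 4 calls held with any 1 library left out.

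Of 7 genes for the interferon receptor and its signalling, 3 rose and 4 did not pass (median 0.11). Among those that rose was Irf9, which encodes a transcription factor of the type I interferon response. Irf9 stood at 124, 131 and 134 CPM with CRISPRa and 23.1, 24 and 22.9 CPM without the guide (log2 fold change 2.48, SE 0.07, edgeR adjusted p 1.49e-12). The transcription factor gene Stat2 rose by 2.00 on the log2 scale (edgeR adjusted p 4.29e-10). The receptor and kinase genes Ifnar1, Ifnar2, Jak1 and Tyk2 had log2 fold changes from -0.15 to 0.11 and overlapping groups. Of the 4 other deltex genes, relatives of Dtx3l, Dtx1 rose by 0.57 on the log2 scale (edgeR adjusted p 0.0148) and Dtx3, with the highest CPM, was at -0.01 (edgeR adjusted p 0.969). The Dtx1 call was lost without CRISPRa replicate 3 and without no-sgRNA replicate 2 (adjusted p from 0.0521 to 0.0608).

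**Figure D4:**
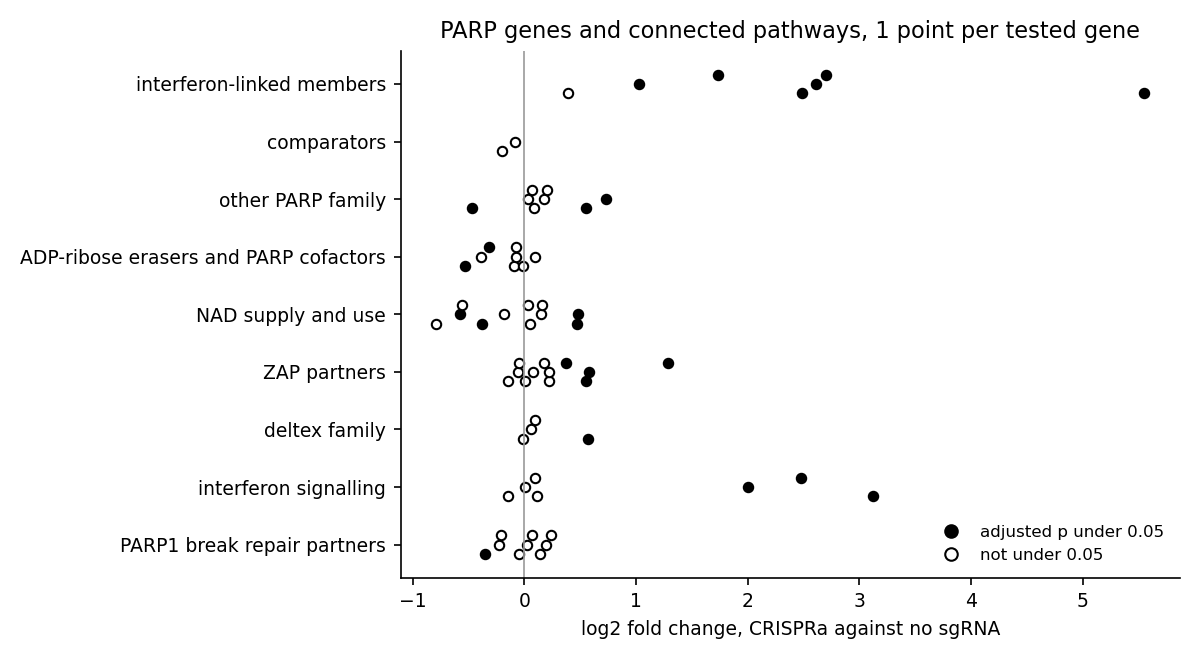
Log2 fold change, CRISPRa against no sgRNA, with 1 point per tested gene in each list, spread vertically for legibility. Filled points have an edgeR adjusted p under 0.05. Beside the interferon-linked genes, values above 1 include those of Trim25, Stat2 and Irf9.

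Enzymes that remove ADP-ribose, and cofactors of PARPs, were compared next. Of 8 tested, 2 fell and 6 did not pass (median -0.08). The 2 were Oard1, a hydrolase that removes terminal ADP-ribose (log2 fold change -0.53, edgeR adjusted p 0.0423), and the chromatin remodeller gene Chd1l (-0.32, edgeR adjusted p 0.0381). The Oard1 call was lost with any 1 of the 6 libraries left out (adjusted p from 0.0628 to 0.127). The Chd1l call remained in 1 of the 6 such fits, that without CRISPRa replicate 5, and was lost in the other fits (adjusted p from 0.0592 to 0.171). Adprh, which removes ADP-ribose from arginine and had the highest CPM, stood at 83.8 ± 1.99 against 89.3 ± 5.29 CPM (SD, n = 3), with overlapping groups.

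Of 11 tested genes that supply or use NAD, the substrate of PARPs, 2 rose, 2 fell and 7 did not pass (median 0.03). Nmnat2, the gene of an NAD-synthesising enzyme of axons, rose from 32.3 ± 2.69 to 45.1 ± 2.34 CPM (SD, n = 3; log2 fold change 0.48, edgeR adjusted p 0.00153), also with any 1 library left out. Nnmt rose by 0.47 on the log2 scale (edgeR adjusted p 0.0215), and Nmrk1 (-0.58, edgeR adjusted p 0.0301) and Nadk2 (-0.38, edgeR adjusted p 0.0193) fell. These calls were lost without CRISPRa replicate 2 or no-sgRNA replicate 4 in all 3 genes. They were also lost without CRISPRa replicate 5 in Nnmt and Nmrk1, without CRISPRa replicate 3 in Nadk2, without no-sgRNA replicate 2 in Nnmt and without no-sgRNA replicate 3 in Nmrk1 (adjusted p from 0.0536 to 0.13), and without no-sgRNA replicate 4 Nadk2 was at -0.24. Nampt, the main NAD salvage enzyme gene, had the highest CPM and stood at 204 ± 4.31 against 184 ± 31 CPM (SD, n = 3), with overlapping groups.

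Of 9 partners of PARP1 in break repair, 1 fell and 8 did not pass (median 0.02). Xrcc1, the scaffold protein gene of single-strand break repair, had 55, 60.5 and 64.9 CPM with CRISPRa and 72.6, 77.5 and 79.8 CPM without the guide (log2 fold change -0.35, SE 0.08, edgeR adjusted p 0.00627).

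Genes beside the members were compared to see whether the differences extended to them. Within 100 kb of a member, 28 of 64 genes passed the filter, and 7 of these were called (25%, against 18.7% of all tested genes), 4 higher and 3 lower, with a median log2 fold change of -0.01. In the chromosome 16 cluster, Hspbap1, 4.4 kb from Parp14, was at 8.08 ± 0.371 against 7.07 ± 0.874 CPM (log2 fold change 0.19, edgeR adjusted p 0.423), and Kpna1, 6.14 kb from Parp9, at 140 ± 12 against 122 ± 1.42 CPM (0.20, edgeR adjusted p 0.0554; SD, n = 3). Gm49730, which lies within the span of Parp14 on the same strand, had 14, 6 and 23 counts with CRISPRa and 0 in each library without the guide, and was too low to be tested. It shares 110 exonic bases with Parp14, 1.18% of that gene's exonic bases, and reads from there cannot be assigned to one of them. Farther out, Fam162a (-0.85, edgeR adjusted p 9.78e-04) and Ccdc58 (-0.57, edgeR adjusted p 6.98e-04), 71.2 and 99.1 kb from Parp9, fell. For Fam162a, CRISPRa replicate 5 was far lower (87 CPM) than the other CRISPRa libraries (151 and 139 CPM).

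Beside Parp10, Grina, 3.32 kb away, rose by 0.44 on the log2 scale (edgeR adjusted p 1.59e-04) and Plec, whose span overlaps Parp10, by 0.46 (edgeR adjusted p 6.00e-04). Kdm7a, 18.3 kb from Parp12, rose by 0.56 (edgeR adjusted p 0.00106). Zc3hav1l, a relative of Zc3hav1 that lies 6.03 kb from it, stood at 41.8 ± 4.83 against 50 ± 2.06 CPM (SD, n = 3; log2 fold change -0.26, edgeR adjusted p 0.0591). The remaining calls, Ubn2 near Zc3hav1 (0.27, edgeR adjusted p 0.0476) and Osgep near Parp2 (-0.28, edgeR adjusted p 0.0386), were each lost in 5 of the 6 fits that left out a library. The Ubn2 call remained without no-sgRNA replicate 2 and the Osgep call without no-sgRNA replicate 3, with adjusted p-values from 0.0218 to 0.169 over these fits. Without no-sgRNA replicate 4 the log2 fold change of Ubn2 was 0.17. The other 5 calls held in all of them.

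**Figure D5:**
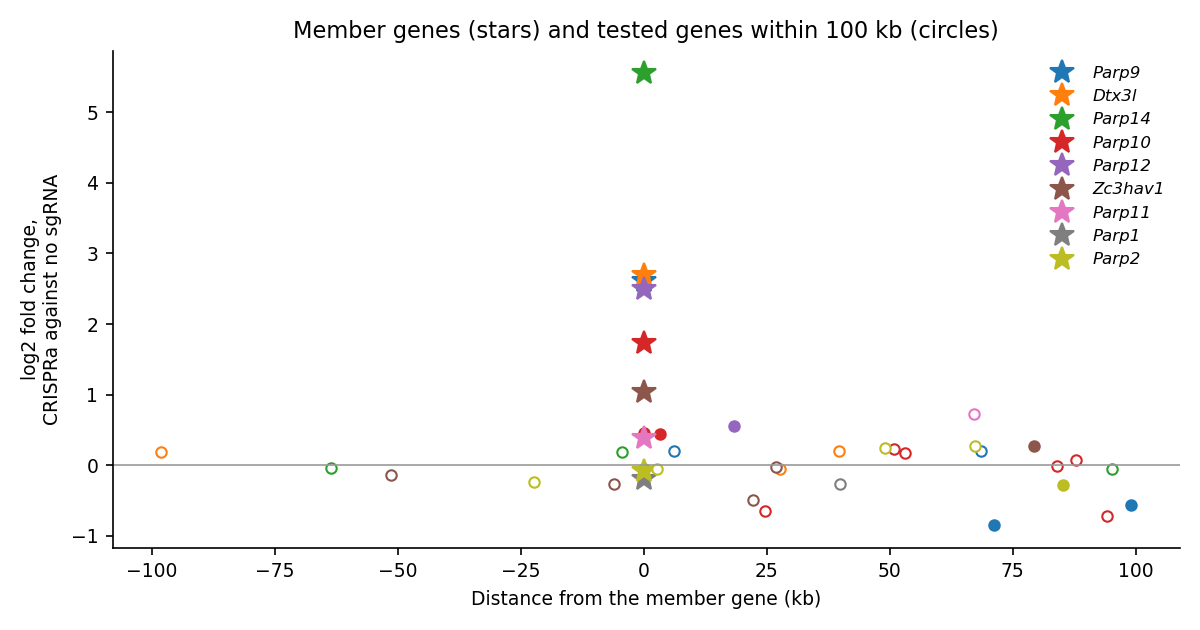
Log2 fold change, CRISPRa against no sgRNA, of the member genes (stars at 0) and of tested genes within 100 kb (circles), by distance in kb from the member of the same colour. Filled circles have an edgeR adjusted p under 0.05, and a gene near several members is drawn for each. The circles lie between -0.85 and 0.72, and the stars of 6 interferon-linked genes lie above them.

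Genes with the most similar profile were named by the Euclidean distance between log2 CPM values, each centred on its own mean, over the 6 libraries, which separates mainly by the size of the group difference. For Parp9 these were Ifit2 (distance 0.16) and Cmpk2 (0.18), and the same genes were nearest to Dtx3l (0.33 and 0.38). Ifi27 (0.23) and Trim21 (0.27) were nearest to Parp10, and Tlr3 (0.29) and Irf9 (0.35) to Parp12. Parp14 was nearest to Ifit1 (0.33), at 215 against 5.3 CPM, and Apol9b (0.46), at 81.2 against 1.5 CPM. Zc3hav1 was nearest to Ccn1 and Aebp1 (0.14 each), and Snw1 (0.12) was among those nearest to Parp11. Among the members themselves, Parp9 and Dtx3l (0.28), Parp1 and Parp2 (0.29), Dtx3l and Parp12 (0.30) and Parp9 and Parp12 (0.31) were the closest pairs.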

How the data were processed

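Poly(A) RNA of transfected Neuro2a cells was sequenced. The deposited count table holds raw gene counts, with no normalisation, for 6 of the 8 labelled samples, beside each gene's exon length. Per the submitters' processing notes, STAR 2.5.1b, featureCounts and DESeq2 were used with mm10; strand setting, annotation and handling of multi-mapping reads are not given in the sources used here. The authors' deposited comparison of 8 samples has the columns of a DESeq2 table, per the file headers: a mean normalised signal, a log2 fold change with its SE, a Wald score and p-values. These were copied, not recomputed. The samples CRISPRa replicate 1 and no-sgRNA replicate 5 enter no fit here.

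Groups come from the titles. The test was edgeR 4.0.16 (R 4.3.3), quasi-likelihood F test, TMM factors, filterByExpr defaults and Benjamini-Hochberg adjustment over 15117 genes. It was run on simulated counts with known changes, with the same variability set for every gene and no structure between replicates. That run does not cover the closer pairs seen among these libraries. The SE is the log2 fold change divided by the square root of F. CPM uses TMM-scaled library totals. All members have the span of GENCODE M21 (GRCm38). Of a member's 50-base words in GENCODE transcripts, at most 8.09% (in Dtx3l) also occur in another gene. Totals of 29739422 to 34248514 counts leave 88 to 91 counts for Parp14 without the guide, which limits its precision. Alternatives were other scalings, filters, tools, libraries, thresholds and windows. Members and lists were chosen with earlier results of these data known. Named genes are all members, from each list up to 4 called genes by size of change and the one with the highest CPM, tested genes within 100 kb (those called or nearest are named, the others counted), and the 2 nearest profiles per interferon-linked gene. Single genes outside this rule were named after their values were seen, and some results that the rule names are not reported here.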

Additional observations from a re-analysis of the deposited data

How the results depend on the processing

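The 6 increases kept their direction and passed in all 15 alternatives run for each, from log2 fold changes of 5.48 to 5.60 for Parp14 to 0.91 to 1.07 for Zc3hav1. The number of interferon-linked genes called was 6 or 7 throughout. Their median ran from 2.38 to 2.55 with 1 library left out. Parp11 ran from 0.28 to 0.50 with 1 library left out and passed without CRISPRa replicate 2, where its log2 fold change was 0.50. Of Parp1 and Parp2, none was called in the reported test, where 1 (Parp1) had an unadjusted edgeR p under 0.05, 0.00974. With 1 library left out, from 0 to 1 was called, and Parp1 ran from -0.25 to -0.15. Parp1 was the 1 gene called with upper-quartile scaling (-0.19), DESeq2 (-0.19), limma-voom (-0.20) and the replicate block (-0.14, adjusted p 0.0474); the cause was not tested. The same 4 libraries without the block gave -0.14 and an adjusted p of 0.0724. The block used the libraries numbered 2 and 3. Their difference in one group had a correlation of 0.0045 across 15117 genes with that in the other. The groups thus had almost no difference between these numbers in common. A batch that libraries 2 and 3 share cancels in this difference, so it was not tested. The block changed no other call among the 9 genes and gave 3170 called genes over all tested. At an adjusted p under 0.01, 1417 genes were called, as the threshold is stricter, and a window of 50 kb, which holds fewer genes, gave 3 called neighbours. Among the 9 genes the counting depth was lowest for Parp14 without the guide, at 88 to 91 counts per library.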
